A study of Arabidopsis thaliana with 12 samples.

Results

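The 40 genes described here make, modify, perceive and answer the plant hormone jasmonate. They were chosen by gene identifier from a list of known pathway genes: 12 of hormone synthesis including the conjugating enzyme JAR1, the methyltransferase JMT, 4 of hormone turnover, the receptor subunit COI1, the transcription factors MYC2, MYC3 and MYC4, the 12 repressors JAZ1 to JAZ12, 4 genes of the MYC response (VSP1, VSP2, CORI3 and TAT3) and 3 of the ethylene-linked response (ORA59, ERF1 and PDF1.2). The rule uses no measured value, but the genes were chosen with earlier results of these data known. Their shares beside all genes are therefore descriptions and not tests. The 40 genes were looked up among the 32833 genes of the count table, and 37 of them were among the 20506 genes with enough counts for a test. MYC2, JAZ8 and ERF1 were not.

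Whole seedlings of Arabidopsis thaliana were profiled by RNA-seq at an age of 7 days, in 12 libraries from 4 groups of 3. The mutant tpst was left untreated or received phytosulfokine (PSK) for 5 h at 100 nM or at 1 µM, and the remaining group was untreated wild type of the Col-0 accession. PSK is a short secreted peptide that is active only when its tyrosines carry sulfate. The tpst mutant, a T-DNA insertion line in the Col-0 background, lacks tyrosylprotein sulfotransferase, the enzyme that adds it, so it makes no active PSK and also lacks the active forms of other sulfated peptides. Only 1 mutant line was used, PSK was given to the mutant alone, and each library pooled 30 seedlings, so the libraries measure pools and not single plants. The labels record no treatment and a time of 0 for untreated seedlings whereas the methods describe a water mock, so the handling of the untreated groups is not settled. The extraction note speaks of separated shoots and roots although every other label says whole seedling.

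Jasmonate is made from plastid membrane lipids. Lipoxygenases oxygenate the fatty acid, allene oxide synthase (AOS) and allene oxide cyclases (AOC) shape the first cyclic intermediate, and the peroxisomal enzymes OPR3, OPCL1 and ACX1 reduce and shorten it to jasmonic acid. JAR1 joins jasmonic acid to isoleucine, and this conjugate lets the F-box protein COI1 bind JAZ repressors, which are then degraded and release MYC transcription factors. The pathway is best known in seedlings and leaves for answers to wounding, insects and some fungi, and several synthesis and JAZ genes are themselves switched on by the hormone.

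Total counts ran from 17066292 to 24948416 per library. TPST, the mutated gene, was measured at 6.70, 7.61 and 8.14 CPM (counts scaled to a common library size) in untreated tpst, against 16.9, 17.0 and 17.3 CPM in Col-0, and no mutant library reached a Col-0 library. Replicate 3 was the odd library within Col-0. Its counts differed from replicates 1 and 2 by a chi-square of 14.7 and 16.1 per degree of freedom, and all other pairs within a group lay between 2.92 and 4.92. Of 14 shoot photosynthesis markers 12 were called higher and 0 lower in untreated tpst than in Col-0, and their summed level was 42818 to 43827 CPM in tpst and 33082 to 35821 CPM in Col-0. Of 13 root markers 10 were called lower and 1 higher, with a summed level of 2685 to 2817 CPM in tpst and 4266 to 4523 CPM in Col-0. No marker of either list was at 0 in all libraries of a group. In these bulk seedlings, more cells of a type and more RNA per cell cannot be told apart.

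Promoters of genes of this pathway often carry the G-box (letters CACGTG, a palindrome, so the same on both strands), which MYC factors bind, or the GCC box (letters GCCGCC, searched on both strands), which ERF factors such as ORA59 bind. In the 250 bases before the gene start, read from the TAIR10.1 genome of RefSeq, the G-box was found in 7 of the 40 genes (17.5%), AOS, ACX1, JAZ2, JAZ3, JAZ7, JAZ8 and ORA59, and in 6.48% of 27419 promoters of the same length. The GCC box was found in PDF1.2 and ORA59 (5.0% of 40), and in 1.87% of all promoters. The 2 promoters below are shown because they belong to genes whose levels are described further on, a synthesis gene higher in the mutant and a transcription factor lower after PSK. Capitals mark the motifs, and each run is 5′ to 3′ on the strand of the gene, ending at the last base before its start. The AOS window is chr5:17099596-17099845 on the minus strand and the ORA59 window is chr1:1882657-1882906 on the plus strand.
AOS: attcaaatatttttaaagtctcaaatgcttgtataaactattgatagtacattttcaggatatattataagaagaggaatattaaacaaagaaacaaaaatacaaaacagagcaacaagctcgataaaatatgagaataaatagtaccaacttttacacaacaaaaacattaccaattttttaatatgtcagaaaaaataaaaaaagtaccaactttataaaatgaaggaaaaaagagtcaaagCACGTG
ORA59: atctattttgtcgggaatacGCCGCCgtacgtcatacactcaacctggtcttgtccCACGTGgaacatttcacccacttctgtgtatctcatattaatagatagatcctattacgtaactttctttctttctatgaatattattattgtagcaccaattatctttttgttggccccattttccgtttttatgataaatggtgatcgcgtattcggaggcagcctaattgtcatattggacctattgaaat
The G-box of AOS began 6 bases before the gene start, while that of ORA59 began 194 and its GCC box 230 bases before it. Neither string was found in these windows of LOX2, CORI3, JAZ9 or JAZ4. A match is a string of letters and was not tested for binding.

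Untreated tpst was compared with Col-0 to ask how the pathway stands in seedlings without sulfated peptides. The synthesis genes LOX2, LOX3, AOS, AOC1, AOC2 and OPR3 and the response genes CORI3 and VSP2 were higher in the mutant, and JAR1 was lower. The synthesis genes LOX4, LOX6, AOC3, OPCL1 and ACX1 and the response genes VSP1, TAT3, PDF1.2 and ORA59 were not called. The repressor genes JAZ9 and JAZ4 moved in opposite directions, and no test was passed by the receptor gene, MYC3, MYC4 or the turnover genes. By edgeR's quasi-likelihood test with Benjamini-Hochberg adjustment over all 20506 genes, 11 of the 37 genes were called at an adjusted p under 0.05, 9 higher and 2 lower. That is 29.7% of them, against 27.9% of all genes tested (13.3% higher and 14.6% lower), so the share called in either direction is close to the background. The calls of the 37 lean to higher, and those of all genes slightly to lower. At an unadjusted p under 0.05 there were 14, or 37.8% against 37.7% of all genes. With a change of at least 2-fold as well, 6 of 37 were called (16.2%: LOX2, AOS, JAZ9, VSP2 and CORI3 higher, JAZ4 lower), against 6.43% of all genes (0.99% higher and 5.44% lower). The median log2 change of the 37 was 0.15 with 25 above 0, beside a median of 0.00 over all genes. Without Col-0 replicate 3, an alternative that leaves out the library standing apart, 10 of 37 were called.

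**Figure D1:**
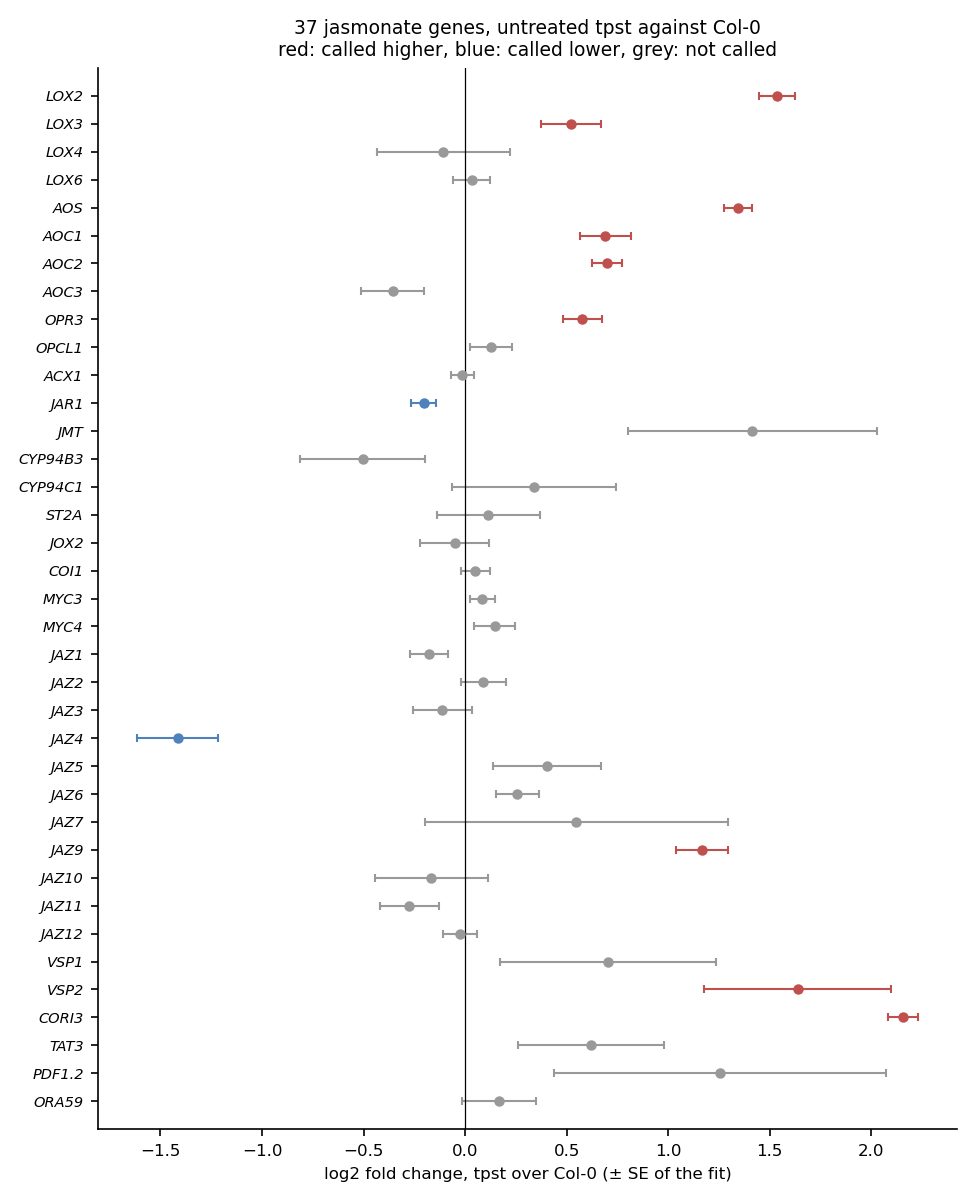
Log2 fold change of untreated tpst over Col-0 (x axis, points with the standard error of the fit) for the 37 jasmonate genes tested, in the order synthesis, turnover, perception, JAZ and response (y axis). CORI3 lies furthest right at 2.15 and JAZ4 furthest left at -1.42.

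The lipoxygenase LOX2, a plastid enzyme at the entry of the pathway (AT3G45140, chr3:16525245-16529352 in TAIR10), was measured at 1162, 1052 and 1154 CPM in untreated tpst, against 381, 335 and 446 CPM in Col-0. The lowest mutant library lay far above the highest Col-0 library. The difference was 2.90-fold (log2 1.53, SE 0.09, edgeR adjusted p = 4.97e-08). LOX3 (AT1G17420), a lipoxygenase known for wound responses and flower fertility, was at 19.5, 19.5 and 25.2 CPM in tpst and at 13.6, 14.3 and 16.7 CPM in Col-0. Its groups did not overlap, and the log2 change was 0.52 (SE 0.15, edgeR adjusted p = 0.0126). Without Col-0 replicate 1, Col-0 replicate 2 or tpst replicate 3 the LOX3 call was lost, at edgeR adjusted p = 0.0570, 0.0531 and 0.0592 and log2 changes of 0.46, 0.49 and 0.39. LOX4 and LOX6 overlapped between the groups, with log2 changes of -0.11 (95% interval -0.82 to 0.60) and 0.03 (-0.16 to 0.22).

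AOS, which turns the lipoxygenase product into an unstable allene oxide (AT5G42650, chr5:17097564-17099595, its G-box promoter shown above), was at 145, 129.8 and 148 CPM in tpst, against 57.8, 53.0 and 55.7 CPM in Col-0. All 3 mutant libraries were above all Col-0 libraries, by 2.54-fold (log2 1.34, SE 0.07, edgeR adjusted p = 5.50e-13). AOC1, AOC2 and AOC3, which encode the cyclases that close the ring, stand side by side at chr3:9403779-9411090. AOC2 (AT3G25770), the most abundant of them, was at 287, 271 and 254 CPM in tpst and at 153, 159 and 188 CPM in Col-0, a log2 change of 0.70 (SE 0.07, edgeR adjusted p = 5.22e-07). AOC1 (AT3G25760) was at 23.9, 26.3 and 29.8 CPM in tpst and at 16.6, 16.9 and 16.0 CPM in Col-0, a log2 change of 0.69 (SE 0.12, edgeR adjusted p = 0.000222). Both separated the groups completely, whereas AOC3 overlapped, with a log2 change of -0.36 (SE 0.16) that did not pass (edgeR adjusted p = 0.0936). Coding sequences of AOC1 and AOC2 were identical at 90.3% of aligned bases, and those of AOC3 at 82.7% with AOC1 and 82.4% with AOC2. Their longest identical runs were 47, 73 and 50 bases in that order, shorter than the reads described in the paper. Untranslated parts were not compared and sharing of fragments among the 3 was not tested, so some uncertainty stays in their separate values.

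Of the peroxisomal enzymes, OPR3 (AT2G06050), which reduces the cyclic intermediate, was at 38.7, 32.5 and 41.9 CPM in tpst, against 25.6, 26.9 and 23.2 CPM in Col-0. The groups did not overlap, and the log2 change was 0.58 (SE 0.09, edgeR adjusted p = 4.05e-05). OPCL1, a CoA ligase, and ACX1, an acyl-CoA oxidase of the shortening steps, had log2 changes of 0.13 and -0.01 with overlapping libraries. JAR1 (AT2G46370), which makes the active isoleucine conjugate, was lower: 49.8, 51.8 and 49.7 CPM in tpst, against 57.6, 54.7 and 62.0 CPM in Col-0, a log2 change of -0.20 (SE 0.06) with an edgeR adjusted p of 0.0157. Its call was lost without Col-0 replicate 3, tpst replicate 1 or tpst replicate 3, at edgeR adjusted p = 0.0738, 0.0569 and 0.0581. The methyltransferase JMT was near the detection limit, from 0.405 to 0.491 CPM in tpst and from 0.112 to 0.256 CPM in Col-0, and was not called (log2 1.41, SE 0.61, edgeR adjusted p = 0.0893).

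The 4 turnover genes, the P450 oxidases CYP94B3 and CYP94C1, the sulfotransferase ST2A and the jasmonate oxidase JOX2, gave 0 calls by edgeR in this comparison, 0 at an unadjusted p under 0.05 and 0 by DESeq2. Their log2 changes ran from -0.50 (CYP94B3) to 0.34 (CYP94C1). COI1 lay between 41.0 and 43.3 CPM in tpst and between 39.4 and 41.2 CPM in Col-0, MYC3 between 42.4 and 43.8 CPM in tpst and between 39.6 and 41.2 CPM in Col-0, and MYC4 between 18.3 and 21.3 CPM in tpst and between 16.1 and 20.7 CPM in Col-0. The 95% intervals of their log2 changes were -0.10 to 0.20, -0.04 to 0.21 and -0.06 to 0.35. These small changes depended on the scaling. Relative to the summed shoot markers, a scaling described with the touch and wound genes, COI1 (-0.26) and MYC3 (-0.23) were called lower in tpst. So were the turnover gene CYP94B3 (-0.82) and the synthesis genes AOC3 (-0.67), ACX1 (-0.33) and LOX6 (-0.28).

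MYC2 (AT1G32640), the best-known factor of the pathway, was listed at 0 in all 12 libraries, and this 0 cannot be read as a level. Of its 3289 exon bases (chr1:11798119-11801407, minus strand), 3241 (98.5%) lie under exons of AT1G32630 on the opposite strand (chr1:11797330-11801359), which held 13 to 51 counts per library. Of 465 protein-coding genes with at least 95% of their exon bases under another gene's exons, 440 (94.6%) were at 0 in every library, against 3629 of 27420 (13.2%) protein-coding genes in all. The setting that assigned such fragments is not given in the sources used here.

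**Figure D2:**
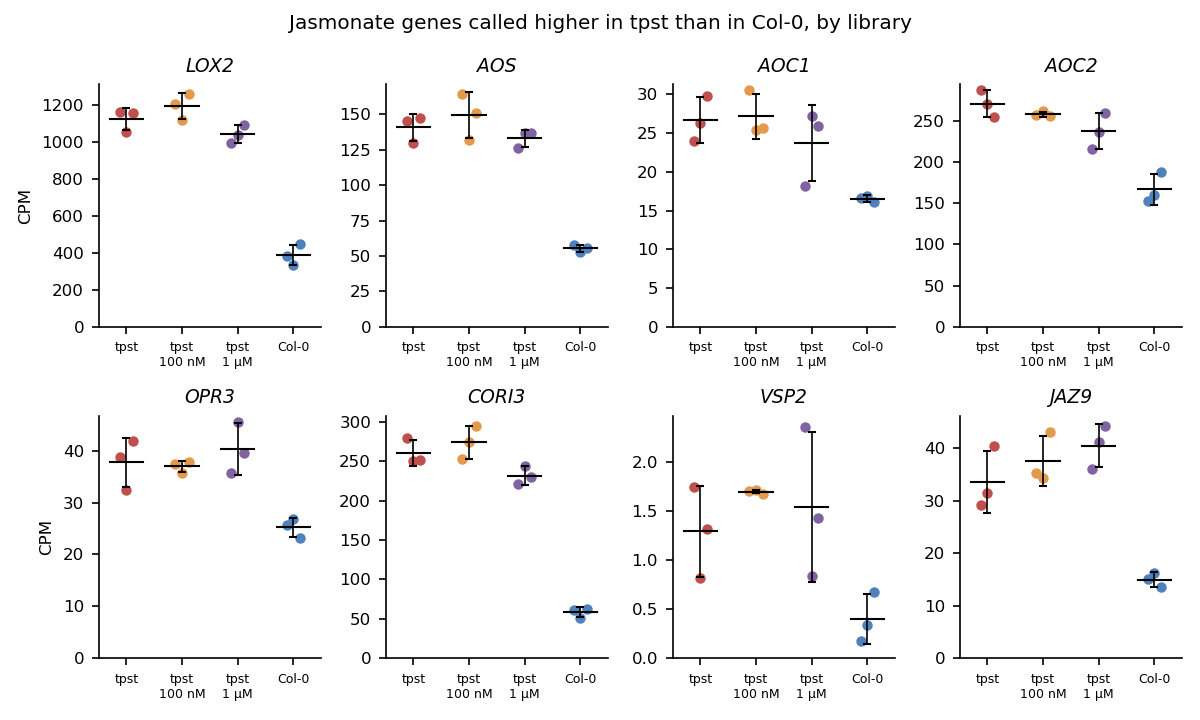
Expression in CPM (y axes starting at 0) of 8 of the 9 jasmonate genes called higher in tpst (LOX3 is not drawn) in each library (points), with the group mean (bar) and SD (whiskers), for untreated tpst, tpst with 100 nM PSK, tpst with 1 µM PSK and Col-0 (x axis). In every panel all 9 mutant libraries, treated or not, lie above the Col-0 libraries.

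JAZ proteins hold MYC factors inactive, and the 12 genes spanned a wide range of levels. They were compared as FPKM, the deposited fragment counts divided by gene length and a scaled library size. The highest in untreated tpst were JAZ12 (25.9 ± 2.93, SD, n = 3), JAZ9 (18.0 ± 3.13) and JAZ2 (17.0 ± 1.90), and the lowest with any counts was JAZ8 (0.104 ± 0.180). In Col-0 JAZ12 (26.3 ± 1.35) and JAZ2 (15.9 ± 2.11) led and JAZ9 stood at 8.00 ± 0.750 FPKM. JAZ9 and JAZ2 in tpst did not differ beyond their spread.

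Of the 11 JAZ genes tested, 1 was called higher and 1 lower in untreated tpst than in Col-0 (18.2%, against 27.9% of all genes). JAZ9 (AT1G70700) was at 29.2, 31.4 and 40.3 CPM in tpst, against 15.1, 16.3 and 13.5 CPM in Col-0, so every mutant library was above the wild type (2.24-fold, log2 1.17, SE 0.13, edgeR adjusted p = 2.15e-06). JAZ4 (AT1G48500) went the other way, at 4.27, 4.58 and 2.93 CPM in tpst and at 9.50, 9.86 and 12.2 CPM in Col-0 with a log2 change of -1.42 (SE 0.20) and an edgeR adjusted p of 4.22e-06. For neither gene did the groups overlap. JAZ6 also separated the groups, at 21.1, 24.2 and 27.9 CPM in tpst against 19.2, 21.1 and 20.8 CPM in Col-0, if by less than the rounding, and did not pass (log2 0.26, SE 0.10, edgeR adjusted p = 0.0665). The other 8 had log2 changes from -0.27 (JAZ11) to 0.55 (JAZ7), and JAZ7 turned to -0.45 without tpst replicate 3. Relative to the summed shoot markers JAZ1, JAZ3, JAZ11 and JAZ12 were also called lower. JAZ8 held 0, 0 and 5 counts in untreated tpst, 1, 0 and 4 with 100 nM PSK, 0, 4 and 0 with 1 µM PSK, and 1, 1 and 0 in Col-0, too few for a test.

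**Figure D3:**
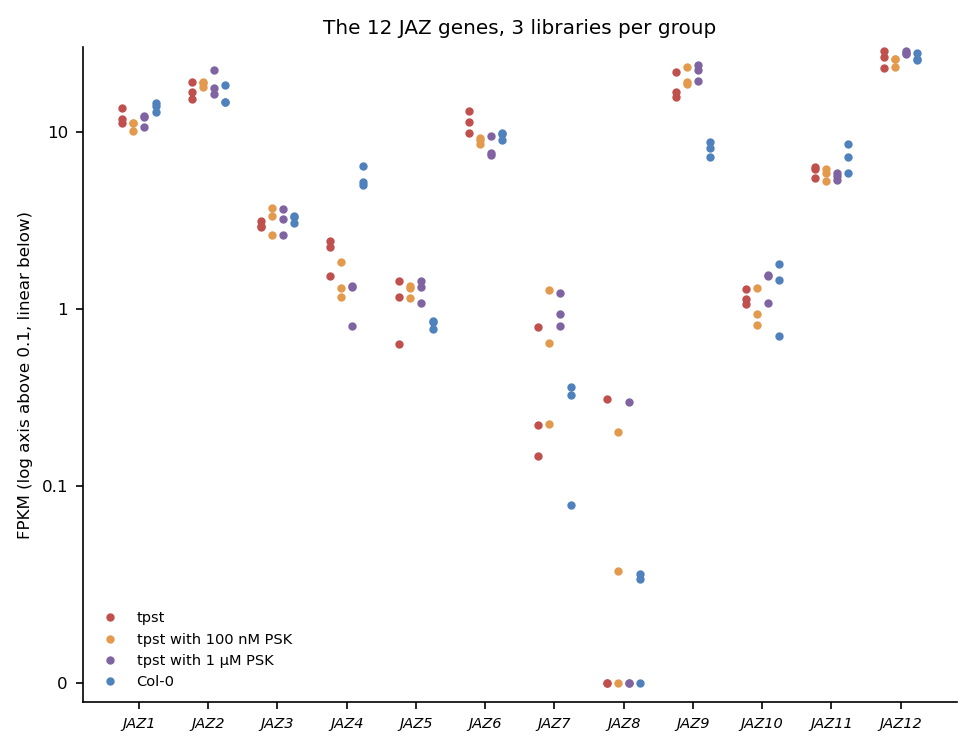
FPKM of the 12 JAZ genes (x axis) in each library (points), on a y axis that is logarithmic above 0.1 and linear below, for tpst, tpst with 100 nM PSK, tpst with 1 µM PSK and Col-0. JAZ9 lies higher and JAZ4 lower in all 9 mutant libraries than in Col-0, and JAZ8 has libraries at 0 in every group.

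The response gene CORI3, a cystine lyase induced by the jasmonate mimic coronatine (AT4G23600, chr4:12310379-12313212), had the largest log2 change of the 37. It was at 279, 250.2 and 251 CPM in untreated tpst, against 61.1, 51.3 and 62.8 CPM in Col-0. The mutant libraries were all several-fold above the wild type (4.45-fold, log2 2.15, SE 0.07, edgeR adjusted p = 9.33e-15). VSP2 (AT5G24770), a vegetative storage protein used as a marker of the MYC response, was low throughout, at 1.74, 0.818 and 1.31 CPM in tpst and at 0.180, 0.341 and 0.675 CPM in Col-0. Its groups did not overlap (log2 1.64, SE 0.46, edgeR adjusted p = 0.00802), and the call was lost without tpst replicate 1 (log2 1.35, edgeR adjusted p = 0.0587). Its paralog VSP1 was at 0.413, 0.573 and 0.708 CPM in tpst and at 0.405, 0.0853 and 0.525 CPM in Col-0, which overlap. Coding sequences of VSP1 and VSP2 were identical at 90.4% of aligned bases, with a longest identical run of 54 bases, shorter than the reads. Sharing of fragments between them was not tested. The tyrosine aminotransferase TAT3 (log2 0.62, SE 0.36, edgeR adjusted p = 0.239) and the defensin PDF1.2 (log2 1.25, SE 0.82, edgeR adjusted p = 0.308) were not called, although the libraries of both lay above Col-0. ERF1 held 1, 2 and 5 counts in untreated tpst, 5, 5 and 0 with 100 nM PSK, 2, 0 and 1 with 1 µM PSK, and 3, 7 and 2 in Col-0.

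In all, 17 of the 37 genes had libraries that did not overlap between tpst and Col-0 (14 above and 3 below), which is 45.9%, against 39.8% of all genes. Touch and early wound genes were set beside these values. The summed level of 12 of them was 130.2, 147 and 174 CPM in untreated tpst and 124, 109 and 125 CPM in Col-0. Of 11 tested, 3 were called higher, beside 13.3% higher of all genes. The list holds WRKY33 and WRKY40, which the paper reports as lowered by PSK, so its sum does not measure handling alone. Untreated tpst replicate 3, the highest of these in that sum, was also the highest of its group for 21 of the 37 jasmonate genes (56.8%), against 33.3% of all genes. With 100 nM PSK, replicate 1 was highest for 18 of the 37 (48.6%, against 36.0%) and had the lowest touch and wound sum of that group. Replicate 2 was most often highest with 1 µM PSK (17 genes, against 15 for replicate 3) and in Col-0 (15, against 14 for replicate 3). It had the lowest sum of its group in both, and these counts lie close together. The part of handling and of the shoot and root shift in the jasmonate values was not tested. When libraries were scaled to the summed shoot markers in place of TMM, a scaling chosen after the data were seen under which the median log2 change of all genes was -0.31, 8 of the 9 genes called higher in tpst were still called higher, LOX2 at log2 1.22, AOS at 1.03, JAZ9 at 0.85 and CORI3 at 1.84. LOX3 was not (log2 0.20, edgeR adjusted p = 0.215). In that scaling 20 of the 37 were called, 8 higher and 12 lower, beside 447 genes higher and 10847 lower of all genes.

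A list of 44 other synthesis, turnover, signalling and response genes of the pathway was counted beside them. It too was chosen with earlier results of these data known. Of the 35 tested, 6 were called higher and 3 lower in untreated tpst than in Col-0 (25.7%, against 27.9% of all genes), with a median log2 change of 0.09 and 0 calls of at least 2-fold. Of the 13 synthesis genes in it 5 were called higher (38.5%, against 13.3% of all genes), with log2 changes up to 0.50.

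The 2 doses of PSK were compared with untreated tpst to ask how the pathway answers the peptide within 5 h. In the fit of all 12 libraries edgeR called only JAZ4, JAZ6 and ORA59 of the 37 genes, all lower at 1 µM PSK.

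At 100 nM PSK, edgeR called 0 of the 37 genes, against 3.20% of all genes. At an unadjusted p under 0.05 there were 6 (16.2%, against 12.6% of all genes), and DESeq2 called 1, TAT3. Libraries of 8 genes did not overlap between the groups (21.6%, against 19.8% of all genes). TAT3 was at 3.90, 2.22 and 2.86 CPM with 100 nM PSK, against 6.70, 4.38 and 7.84 CPM in untreated tpst. The libraries did not overlap (log2 -1.07, SE 0.37), and the edgeR adjusted p was 0.213 and the DESeq2 adjusted p 0.0281. Without 1 µM replicate 1 the edgeR adjusted p of TAT3 at 100 nM was 0.00568. At 1 µM PSK the log2 change of TAT3 was -0.38 (SE 0.36, edgeR adjusted p = 0.646), and -1.01 without that library (edgeR adjusted p = 0.0237). JAZ6 was at 19.6, 19.1 and 18.2 CPM with 100 nM PSK, against 21.1, 24.2 and 27.9 CPM in untreated tpst (log2 -0.36, SE 0.11, edgeR adjusted p = 0.0556). It passed with only the 2 groups fitted (edgeR adjusted p = 0.0151), without the filter on low counts and without Col-0 replicate 3, tpst replicate 1 or 1 µM replicate 2, at edgeR adjusted p = 0.0325, 0.0177, 0.0251 and 0.0399. ORA59 had a log2 change of -0.61 (SE 0.19, edgeR adjusted p = 0.0844).

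At 1 µM PSK, 3 of the 37 genes were called lower and 0 higher (8.11%, against 6.45% of all genes, of which 3.45% lower). At an unadjusted p under 0.05 there were 9 (24.3%, against 18.9%), and libraries of 8 genes did not overlap (21.6%, against 26.6%). ORA59, an ERF factor that joins jasmonate and ethylene signals (AT1G06160, chr1:1882907-1883992, its promoter shown above), was at 2.35, 2.53 and 3.07 CPM with 1 µM PSK and at 5.73, 5.11 and 6.27 CPM in untreated tpst. Every treated library was below every untreated one (log2 -1.10, SE 0.20, edgeR adjusted p = 0.000662), and of the 37 genes it alone was called with at least 2-fold in this fit (2.70%, against 1.21% of all genes). JAZ6 (AT1G72450), another repressor gene, was at 15.7, 20.2 and 16.1 CPM with 1 µM PSK, against 21.1, 24.2 and 27.9 CPM in untreated tpst (log2 -0.50, SE 0.11, edgeR adjusted p = 0.00392). JAZ4 was also lower, at 2.51, 1.5 and 2.54 CPM with 1 µM PSK, against 4.27, 4.58 and 2.93 CPM in untreated tpst (log2 -0.84, SE 0.23, edgeR adjusted p = 0.0280). In none of the 3 did the groups overlap. The JAZ4 call was lost without tpst replicate 1, tpst replicate 2 or 1 µM replicate 2, at edgeR adjusted p = 0.102, 0.155 and 0.171. Without Col-0 replicate 3, 5 of 37 genes were called, AOC2 and MYC4 joining the 3.

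**Figure D4:**
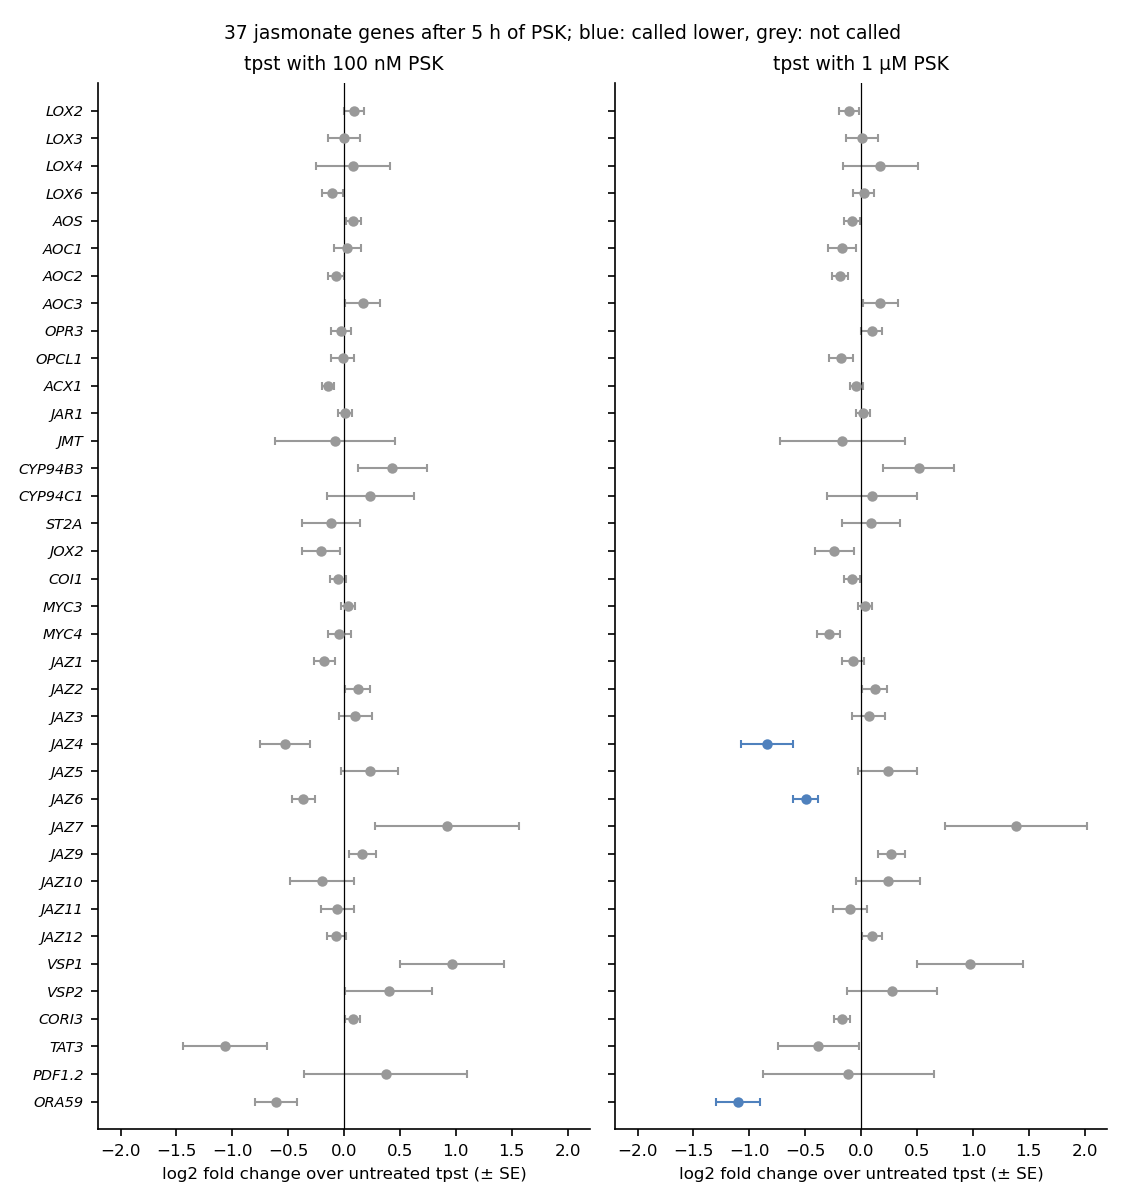
Log2 fold change over untreated tpst (x axes, points with the standard error of the fit) of the 37 jasmonate genes tested (y axis) after 5 h of 100 nM PSK (left) and 1 µM PSK (right). Only ORA59 (-1.10), JAZ4 (-0.84) and JAZ6 (-0.50) were called, all at 1 µM.

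The synthesis genes called higher in untreated tpst were also called higher than in Col-0 at both doses, except that relative to the summed shoot markers LOX3 lost the call at both doses and AOC1 and AOC2 lost it at 1 µM. The LOX3 call was also lost without Col-0 replicate 1, Col-0 replicate 2 or 100 nM replicate 1 at 100 nM PSK, and without 1 µM replicate 2 at 1 µM PSK, at edgeR adjusted p = 0.0542, 0.0513, 0.0546 and 0.0518. LOX2 was at 1204, 1119 and 1257 CPM with 100 nM PSK and at 994, 1037 and 1093 CPM with 1 µM PSK, and the 95% interval of its log2 change against untreated tpst was -0.10 to 0.28 at 100 nM and -0.30 to 0.08 at 1 µM. AOS was at 165, 132 and 151 CPM with 100 nM PSK and at 126, 137 and 137 CPM with 1 µM PSK, with intervals of -0.06 to 0.22 and -0.22 to 0.06. CORI3 was at 253, 274 and 295 CPM with 100 nM PSK and at 220.4, 244 and 230.0 CPM with 1 µM PSK. All of its 1 µM libraries were below the untreated ones, by -0.17 on the log2 scale (SE 0.07), without passing (edgeR adjusted p = 0.186). JAZ9 was at 35.2, 34.3 and 43.0 CPM with 100 nM PSK and at 36.1, 41.2 and 44.1 CPM with 1 µM PSK. Both overlapped the untreated libraries. Without tpst replicate 3, JAZ9 was called higher with 1 µM PSK than in untreated tpst (log2 0.42, edgeR adjusted p = 0.0231).

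The difference between the doses was tested directly, and 0 of the 37 genes were called by edgeR for 1 µM against 100 nM PSK, against 0.239% of all genes. DESeq2 also called 0, and 5 passed an unadjusted p under 0.05 (13.5%, against 10.2%). Libraries of 5 genes did not overlap (13.5%, against 18.2%). Of the genes called at 1 µM, ORA59 differed between the doses by -0.49 on the log2 scale (95% interval -0.92 to -0.07), JAZ4 by -0.31 (-0.81 to 0.19) and JAZ6 by -0.13 (-0.36 to 0.09), with edgeR adjusted p of 0.399, 0.700 and 0.716. Among the other 35 pathway genes tested, 1 was called at 100 nM PSK, and it was higher (2.86%, against 3.20% of all genes). At 1 µM PSK 5 were called (14.3%, against 6.45%), 4 higher and 1 lower, beside 3% higher and 3.45% lower of all genes. At either dose 0 were called with at least 2-fold.

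**Figure D5:**
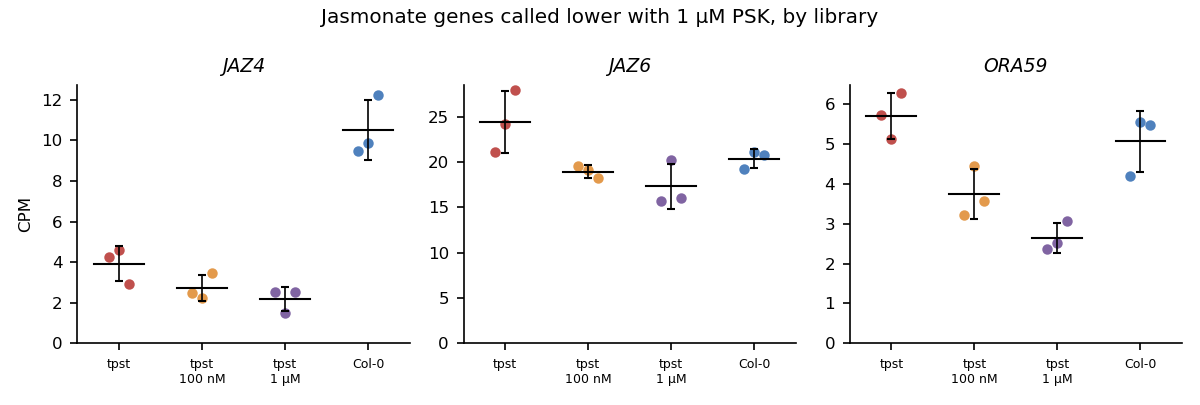
Expression in CPM (y axes starting at 0) of JAZ4, JAZ6 and ORA59 in each library (points), with the group mean (bar) and SD (whiskers), for untreated tpst, tpst with 100 nM PSK, tpst with 1 µM PSK and Col-0 (x axis). The 1 µM libraries lie below the untreated tpst libraries in each panel.

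Treated mutant seedlings were also set against Col-0, with the same Col-0 libraries as before. With 100 nM PSK, 14 of the 37 genes were called (37.8%, against 29.7% of all genes), 10 higher and 4 lower, beside 14.1% higher and 15.6% lower of all genes. With 1 µM PSK, 15 were called (40.5%, against 34.8%), 11 higher and 4 lower, beside 16.9% higher and 17.9% lower. With at least 2-fold there were 7 at 100 nM (18.9%, against 7.13%) and 8 at 1 µM (21.6%, against 7.85%). LOX2, AOS and CORI3 were 3.08-fold, 2.69-fold and 4.69-fold higher with 100 nM PSK than in Col-0, and 2.69-fold, 2.40-fold and 3.96-fold higher with 1 µM PSK, each with an edgeR adjusted p of 6.76e-08 or lower. JAZ4 was lower by -1.94 (SE 0.21) and -2.26 (SE 0.22) on the log2 scale, with edgeR adjusted p = 3.87e-08 and 7.32e-09.

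VSP1 was at 0.781, 1.29 and 1.23 CPM with 100 nM PSK and at 0.716, 1.14 and 1.48 CPM with 1 µM PSK, all above the Col-0 libraries (log2 1.67 and 1.68, edgeR adjusted p = 0.0104 and 0.0101). Without Col-0 replicate 2 both VSP1 calls were lost, at edgeR adjusted p = 0.0723 and 0.0639, and the second also without 1 µM replicate 3 (0.0674). VSP2 was called higher than in Col-0 at both doses as well (log2 2.04 and 1.91, edgeR adjusted p = 0.000814 and 0.00167). JAZ7, a short repressor induced by the hormone, was at 1.06, 0.185 and 0.531 CPM with 100 nM PSK and at 0.768, 0.662 and 1.01 CPM with 1 µM PSK, against 0.183, 0.123 and 0.657 CPM in untreated tpst and 0.270, 0.299 and 0.0750 CPM in Col-0. It was called at 1 µM PSK against Col-0 (log2 1.93, SE 0.66, edgeR adjusted p = 0.0245), a call lost without Col-0 replicate 3 or 1 µM replicate 3 (edgeR adjusted p = 0.0890 and 0.0896). The summed touch and early wound genes stood at 138, 156 and 140.2 CPM with 100 nM PSK and at 163, 156 and 196 CPM with 1 µM PSK, and their part in the JAZ7 and VSP1 values was not tested.

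ORA59 was lower with 1 µM PSK than in Col-0, where it was at 4.19, 5.55 and 5.47 CPM (log2 -0.94, SE 0.20, edgeR adjusted p = 0.000580). With 100 nM PSK ORA59 was at 3.22, 4.44 and 3.56 CPM, which overlapped Col-0, and was not called (log2 -0.44, edgeR adjusted p = 0.0785). It was called lower without Col-0 replicate 1 or 100 nM replicate 2 (edgeR adjusted p = 0.0419 and 0.0453). Relative to the summed shoot markers it was called lower too (log2 -0.77, edgeR adjusted p = 0.00144). JAZ1 was at 20.3, 18.3 and 20.2 CPM with 100 nM PSK, below the 26.4, 23.6 and 25.2 CPM of Col-0 (log2 -0.36, edgeR adjusted p = 0.00414), and at 22.0, 19.1 and 22.0 CPM with 1 µM PSK (log2 -0.25, edgeR adjusted p = 0.0395). The 1 µM call of JAZ1 was lost without Col-0 replicate 1, Col-0 replicate 3 or 1 µM replicate 2, at edgeR adjusted p = 0.131, 0.0555 and 0.188, by DESeq2 (adjusted p = 0.0642), and by edgeR with no filter on low counts (adjusted p = 0.0505) or only the 2 groups fitted (0.0736). ACX1 was at 119.7, 134 and 121 CPM with 100 nM PSK, against 136, 137 and 145 CPM in Col-0 (log2 -0.16, edgeR adjusted p = 0.0358), a call lost by DESeq2 (adjusted p = 0.0600) and without Col-0 replicate 3, 100 nM replicate 1 or 100 nM replicate 3 (edgeR adjusted p = 0.0688, 0.153 and 0.138), and also with no filter (0.0562) or only the 2 groups (0.117). JAR1 was lower at both doses, by -0.19 on the log2 scale each (edgeR adjusted p = 0.0199 and 0.0246), and lost both calls without Col-0 replicate 3 (0.0941 and 0.115), the first also without 100 nM replicate 2 (0.0866), and the second without 1 µM replicate 2 or 3 (0.0996 and 0.0832). With only the 2 groups fitted JAR1 was not called at either dose (edgeR adjusted p = 0.0661 and 0.0850).

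The median coefficient of variation of the 37 genes was 11.3% in untreated tpst, 10.5% with 100 nM PSK, 14.5% with 1 µM PSK and 9.41% in Col-0, beside 7.77%, 7.91%, 8.29% and 9.78% over all genes in the same groups.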

How the data were processed

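Messenger RNA of 12 whole-seedling libraries was sequenced and processed by the authors with fastp, HISAT2 2.0.5 on TAIR10 and featureCounts 1.5.0-p3. The deposited table holds integer counts per gene from the authors' featureCounts run. The FPKM values were computed by the authors from those counts by gene length and a scaled library size. That size was 1.03 to 1.06 times the count total in Col-0 and 0.949 to 0.965 times in the mutant libraries. Strand and multi-mapping settings are not given in the sources used here, so paralogs and antisense genes may share fragments.

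Counts were tested in R 4.3.3 with edgeR 4.0.16 (filterByExpr, which kept 20506 genes and 99.96% of counts, TMM factors 0.974 to 1.07, robust quasi-likelihood fit of all 12 libraries, 1 term per group, 8 residual degrees of freedom, two-sided, Benjamini-Hochberg adjustment over all genes tested, called under 0.05). CPM are TMM-scaled. Library totals of 17066292 to 24948416 limit only genes of a few counts. An exact permutation test of 3 against 3 libraries cannot reach p = 0.05. The labels give 3 replicates per group and the methods call them independent.

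Alternatives were DESeq2 1.42.0, its size factors, no filter, only the 2 groups, a replicate block, each library left out and a 2-fold rule. Scaling to shoot markers was added after the data were seen. Members and lists were chosen with earlier results of these data known. Libraries are listed for members called in at least 1 comparison or under the filter, though not in every group, and the others by range. Other pathway genes were to be named only if called with at least 2-fold in the first 4 comparisons, and none was. The tests were checked on simulated data for tpst against Col-0, with the same spread for all genes and changes of at least 2-fold in well-counted genes. Smaller changes and genes of few counts were not covered by that check. Table coordinates matched the TAIR10.1 annotation for all 40 members. Paralogs were compared by coding sequence (Biopython 1.88).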

Additional observations from a re-analysis of the deposited data

How the results depend on the processing

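Of the 11 calls in untreated tpst against Col-0, LOX2, AOS, AOC1, AOC2, OPR3, JAZ4, JAZ9 and CORI3 held under each of the 18 alternative fits, including the shoot scaling. With the 2-fold rule the members called fell to 6 for tpst against Col-0 (1318 of all genes), 1 for 1 µM PSK against tpst (248 of all genes), 7 for 100 nM PSK against Col-0 (1463) and 8 for 1 µM PSK against Col-0 (1609), and all genes called to 152 for 100 nM PSK against tpst and 13 between the doses. For 100 nM PSK against tpst, where edgeR called 0 members, no filter gave 1 (JAZ6), DESeq2 1 (TAT3), only the 2 groups 3 (JAZ6, TAT3 and ORA59) and the replicate block 2 (JAZ6 and TAT3). For 1 µM PSK against tpst, fitting only the 2 groups gave 5 members (MYC4 and CORI3 joined) and 2115 genes, in place of 3 and 1323. Between the doses, all genes called were 49, but 97 with no filter, 153 by DESeq2, 467 with only the 2 groups (2 members, LOX2 and CORI3) and 95 with the replicate block.

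The replicate numbers did not pair the libraries, since same-numbered libraries had correlations of deviations from -0.08 to 0.06. Scaled to the summed shoot markers, members called were 20, 24 and 24 for tpst, 100 nM PSK and 1 µM PSK against Col-0, and all genes 11294, 12153 and 12669. Changes of sign were counted over all 222 pairs of a tested gene and a comparison. There were 158, 33 of them under the shoot scaling, and 0 concerned a pair that edgeR called in the fit reported above. Among the pairs given a value in the text or called under some alternative, the shoot scaling turned LOX6 (-0.28), OPCL1 (-0.19), COI1 (-0.26), MYC3 (-0.23), MYC4 (-0.17) and JAZ6 (-0.057) negative in tpst against Col-0, MYC3 (-0.20) and JAZ2 (-0.12) with 100 nM PSK against Col-0, and LOX6 (-0.30), MYC3 (-0.24), JAZ2 (-0.15) and JAZ12 (-0.28) with 1 µM PSK against Col-0. The value of COI1 with 100 nM PSK against Col-0 was 0.0051 with DESeq2 size factors, 0.0056 by DESeq2, 0.0067 with no filter and 0.0081 with only the 2 groups. AOC1 and AOC2 lost their calls for 1 µM PSK against Col-0 (log2 0.17 and 0.15).

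Leaving out each library in turn, members called ran from 10 to 12 for tpst against Col-0, 0 to 1 for 100 nM PSK against tpst, 2 to 5 for 1 µM PSK against tpst, 0 to 0 between the doses, 13 to 16 for 100 nM PSK against Col-0 and 12 to 16 for 1 µM PSK against Col-0. All genes called ran from 4577 to 5802, 407 to 1033, 778 to 2174, 17 to 535, 5119 to 6187 and 5964 to 7112 in that order. Without Col-0 replicate 3 the counts were 2174 for 1 µM PSK against tpst, 1033 for 100 nM PSK against tpst and 535 between the doses. In tpst against Col-0, single libraries left out also gave calls for AOC3 (tpst replicate 3), JAZ6 (tpst replicate 1), JAZ11 (Col-0 replicate 2), TAT3 (1 µM replicate 1) and PDF1.2 (100 nM replicate 1). JMT, JAZ7, VSP1, VSP2 and PDF1.2 held few counts, and how far depth limits them was not tested. PDF1.2 also varied among libraries, at 3.95 ± 3.15 FPKM (SD, n = 3) with 100 nM PSK and 3.05 ± 0.164 FPKM in untreated tpst. Some uncalled values also changed sign, most of them near 0, though JAZ7 was at 0.55 in tpst against Col-0. In tpst against Col-0 they ranged from -0.51 to 0.14 for LOX4, -0.053 to 0.095 for LOX6, -0.058 to 0.015 for ACX1, -0.45 to 0.96 for JAZ7 and -0.10 to 0.056 for JAZ12. With 100 nM PSK against Col-0 they ranged from -0.024 to 0.015 for COI1 and -0.13 to 0.12 for JAZ3, and with 1 µM PSK against Col-0 from -0.030 to 0.13 for LOX6, -0.12 to 0.053 for OPCL1, -0.12 to 0.015 for COI1 and -0.17 to 0.083 for JAZ3.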
